A study of Mus musculus with 16 samples.

Results

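This account describes the olfactory receptors of 7 mouse autosomes that hold few receptor genes, in sorted cells of the olfactory mucosa. The members were every array feature whose identifier places it on chromosome 3, 4, 5, 6, 8, 12, 13, 14, 15 or 18 and whose symbol is Olfr with a number and no pseudogene suffix, leaving out 14 receptors by name. Of 1080 such receptors on the array, 117 lay on these chromosomes, 6 of those were among the named exclusions, and 111 remained. Chromosome 14 held 33 members, chromosome 6 held 27, chromosome 4 held 23, chromosome 13 held 12, chromosome 15 held 9, chromosome 8 held 5 and chromosome 3 held 2, while chromosomes 5, 12 and 18 gave none. All 111 matched a RefSeq gene on the same chromosome (assembly GRCm38.p6), and 97 of them stood in runs of 2 or more receptors with no other protein-coding gene between. The rule used names and positions and no measured value, but it was set with earlier results of these data known.

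Odorant receptors are G protein-coupled receptors of the ciliated sensory neurons of the nose. Each mature neuron is thought to express a single receptor gene from a single allele, so the messenger RNA of a receptor in a mixed sample reflects both how many neurons chose it and how much RNA each of them holds, and in bulk samples these cannot be told apart. Receptor genes lie in genomic clusters that arose by local duplication, so that neighbours are often close paralogs, and the MOR families used here group mouse receptors by sequence similarity.

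Clariom S arrays measured RNA from C57BL/6 mice of both sexes, 7 to 12 weeks old, that carried S100a5-tauGFP, a reporter in which a fluorescent protein follows S100a5, a calcium-binding protein gene of olfactory neurons that is switched on by activity. All 24 mice were kept singly in clean air for 40 h. From 26 h onwards 12 of them smelled a mixture of the fatty aldehyde undecanal and the floral aromatic aldehyde bourgeonal for 10 s every 20 min, and the vehicle animals received filtered air on the same schedule. Cells of 8 pools of 3 mice, 4 pools per treatment, were sorted by fluorescence, which gave 4 groups of 4 arrays. The titles and the cell type characteristics of the samples name opposite fluorescence on all 16 arrays, and the fractions go by their titles here, titled GFP- and titled GFP+. Every fraction difference is titled GFP- minus titled GFP+. S100a5 itself was higher in titled GFP-, by 1.00 ± 0.20 (SE) on the log2 scale in vehicle pools and by 1.31 ± 0.20 in odor pools (limma adjusted p = 0.00186 and 0.00016, 4 pools each), which goes against the titles.

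The fractions differed in other cells as well. All 8 neutrophil markers (Lcn2, Ngp, S100a8 and others) fell in titled GFP-, where none exceeded background on any array. Their mean log2 signal was 5.01 to 5.64 on the vehicle and 5.19 to 6.19 on the odor arrays titled GFP-, against 14.30 to 16.04 and 14.13 to 15.70 on those titled GFP+. The 8 measured of 9 markers of other leukocytes also fell, as did 6 of 7 markers of immature olfactory neurons, such as Gap43, in both treatments, with list means of 9.05 to 9.54 against 11.28 to 12.09. Of the 7 measured markers each of sustentacular and of basal or cycling cells, 4 fell in vehicle pools, with 5 and 4 in odor pools, and all 5 microvillar markers fell in both. All 5 activity-dependent neuronal genes rose in both. Of 7 markers of mature neurons, 0 passed in vehicle and 1 in odor pools. These markers moved with every fraction difference given here, and their part in the members' values was not tested.

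As upstream sequence helps to show how alike 2 members can be, RefSeq's promoter windows (GRCm38.p6, 250 bases before and 50 after the start of a gene model) were read for 95 members. In 66 of these windows the model starts at an ATG, so they describe the stretch before the coding sequence and not a mapped promoter. The 29 others were compared with each other over the 250 bases before the start. The longest identical run between members that do not share a named family was at most 14 bases, with a median of 8 over 388 pairs. These include the pairs of Olfr49, which had no MOR family name. Within families the median over 18 pairs was also 8, but Olfr287 and Olfr288 shared 67 bases and Olfr723 and Olfr724 shared 155. The last pair, MOR247 receptors that lie side by side on chromosome 14, is shown because both gave the smallest p-values of the comparison of odor with vehicle in titled GFP+ cells. Olfr723 is on the minus strand at chr14:49929569-49929818 and Olfr724 on the minus strand at chr14:49961097-49961346, and capitals mark the run they share, which ends at the base before the start.
Olfr723: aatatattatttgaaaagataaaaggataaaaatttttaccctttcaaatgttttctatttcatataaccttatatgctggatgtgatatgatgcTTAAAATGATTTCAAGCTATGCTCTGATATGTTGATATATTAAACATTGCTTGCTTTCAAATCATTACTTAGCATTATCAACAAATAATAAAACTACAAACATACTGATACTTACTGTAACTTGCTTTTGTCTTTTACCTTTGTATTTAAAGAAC
Olfr724: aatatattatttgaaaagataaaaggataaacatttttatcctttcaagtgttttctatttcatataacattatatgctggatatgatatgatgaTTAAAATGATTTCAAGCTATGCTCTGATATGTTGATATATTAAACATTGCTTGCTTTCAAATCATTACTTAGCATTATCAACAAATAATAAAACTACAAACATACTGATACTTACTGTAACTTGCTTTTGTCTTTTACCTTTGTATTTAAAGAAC
Over the 250 bases the 2 sequences were identical at 244 positions and differed at 6, with 1 more difference in the first 50 bases of the gene model.

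Another pair is shown from chromosome 4 because its genes stand in one run and belong to the OR37 group, and 1 of them passed in both treatments and the other in neither, a difference between them that was not tested. Olfr155 lies on the plus strand at chr4:43854042-43854291 and Olfr156 on the minus strand at chr4:43821434-43821683. Capitals mark TAATTA, the core of homeodomain sites.
Olfr155: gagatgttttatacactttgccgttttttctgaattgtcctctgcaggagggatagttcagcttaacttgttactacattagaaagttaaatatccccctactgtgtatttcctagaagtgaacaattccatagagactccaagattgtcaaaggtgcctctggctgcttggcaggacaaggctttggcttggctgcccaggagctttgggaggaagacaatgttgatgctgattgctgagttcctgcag
Olfr156: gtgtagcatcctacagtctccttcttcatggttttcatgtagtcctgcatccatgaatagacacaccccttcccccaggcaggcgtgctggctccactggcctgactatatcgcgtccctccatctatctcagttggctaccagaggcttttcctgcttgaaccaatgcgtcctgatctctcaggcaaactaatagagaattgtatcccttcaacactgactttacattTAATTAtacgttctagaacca
The longest run these 2 shared was 7 bases. TAATTA, searched on both strands, was found once before Olfr156, starting 21 bases before the start, and was not in the letters before Olfr155. Over the whole 300-base windows it was present for 10.5% of members, 18.5% of 925 receptor windows and 5.29% of all 32851 windows. TAATGA was in 24.2% of the members' windows, 29.3% of those of all receptors and 9.78% of all windows, and CCCNNGGG, which covers the core bound by EBF proteins, was in 3.16%, 2.92% and 13.7%. TAATTA and TAATGA share the letters TAAT, so their matches can overlap. A match describes letters only.

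Members were measured over a wide range of signal. Mean log2 signal over the 16 arrays ran from 3.78 for Olfr1402, Olfr371 and Olfr1337 being the next dimmest, to 14.28 for Olfr741, with Olfr727 and Olfr213 next below it and a median of 9.26. Signals of different probe sets are not compared further. The median SD within a group was 0.52, from 0.036 to 1.87, and the widest spread was that of Olfr750 in the odor arrays titled GFP-. Background was set at the 95th percentile of 5222 negative control features, 9.14 to 10.88 over the arrays. By this rule 61 of 111 members exceeded background on all 4 arrays of at least 1 group, 13 on all 16 arrays and 29 on none. Lower limits gave more: 91 members exceeded the highest of the 23 GC-graded background sets and 103 the median of the negative controls. The odor array of replicate 1 titled GFP+ had the highest background, 10.88, and the lowest median over all receptors, 7.94. All 111 members were tested, with no filter on low values. Where one fraction was below background on all its arrays, any fold given is a lower bound. The log2 differences of such members describe signal, also where no bound is printed. Among these were Olfr448, Olfr441, Olfr444, Olfr452, Olfr283 and Olfr750, dim in titled GFP-, and Olfr725, Olfr748, Olfr749 and Olfr373, dim in titled GFP+.

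In vehicle pools, 66 of the 111 members passed an adjusted p of 0.05 (limma, Benjamini-Hochberg over all 19572 features): 42 were higher and 24 lower in titled GFP-. Over all features 16.9% passed, 7.05% higher and 9.82% lower, so both shares among the members, 37.84% and 21.62%, lay above the background. Among the receptors that are not members, 516 of 969 passed, 318 higher and 198 lower. The median difference was 0.56 for the members, 0.42 for the other receptors and 0.13 for all features. The 4 arrays of one fraction did not overlap those of the other for 66 members, against 23.4% of all features.

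In odor pools 72 members passed, 48 higher and 24 lower. Over all features 22.2% passed, 12.2% higher and 9.98% lower, and 538 of the other 969 receptors passed, 358 higher and 180 lower. The arrays of the fractions did not overlap for 70 members, against 24.5% of all features. The balance of directions depended on the scale between arrays, whose making is not given in the sources used here: with every array centred on its receptor median, 33 members were higher and 31 lower in odor pools, and 35 and 27 in vehicle pools. Centring on the median of all tested features gave 61 and 23 in odor and 59 and 23 in vehicle pools.

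The sign of a member's difference was nearly always that of the other treatment, in pools of other mice. Of the 111, 40 rose in both treatments, 23 fell in both, 0 passed in opposite directions, 3 passed in vehicle pools alone, 9 in odor pools alone and 36 in neither. Higher signal in titled GFP- was found in all 8 pools for 47 members and lower signal in all 8 for 25. Counts over both treatments were made for the members alone, with no share over all features or the other receptors. They therefore cannot show whether the members differ from other receptors in this. The change of the fraction difference between treatments ran from -0.79 to 1.11, while the differences themselves ran from -7.06 to 5.44 in vehicle and from -7.23 to 5.52 in odor pools. As a description, the differences of the 2 treatments correlated at r = 0.99 over the 111 members, which share arrays within a treatment.

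**Figure D1:**
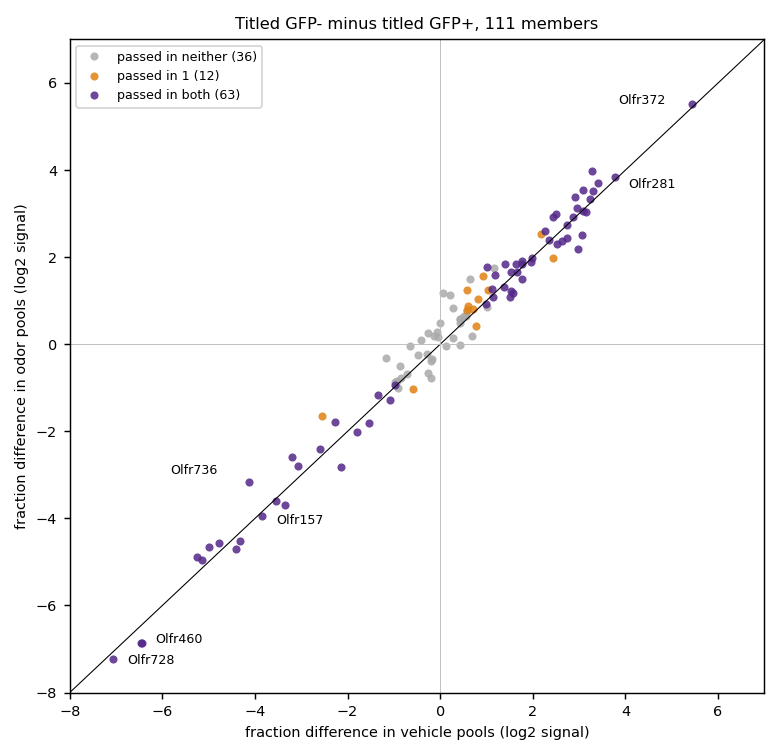
Each point is one of the 111 members, with its titled GFP- minus titled GFP+ difference in vehicle pools on the x axis and in odor pools on the y axis (both log2 signal, 4 pools each), coloured by whether it passed in both, 1 or neither treatment. The 63 members that passed in both lie near the line of equal values, from Olfr728 at -7.06 and -7.23 to Olfr372 at 5.44 and 5.52.

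Members of opposite direction stood side by side. Among neighbouring members that passed in both treatments, 23 pairs had the same and 9 pairs the opposite direction: Olfr448 and Olfr447, Olfr373 and Olfr374, Olfr1362 and Olfr11, Olfr11 and Olfr1361, Olfr724 and Olfr725, Olfr727 and Olfr728, Olfr728 and Olfr729, Olfr736 and Olfr738, and Olfr285 and Olfr284. By chromosome, 8 members fell and 2 rose in vehicle pools on chromosome 6, and 19 rose and 6 fell on chromosome 14. In odor pools 8 fell and 6 rose on chromosome 6, and 18 rose and 5 fell on chromosome 14. The change of the fraction difference between treatments passed for 0 of the 27 members of chromosome 6 (limma). Chromosome 4 had 9 higher and 4 lower members in vehicle and 12 and 4 in odor pools. Chromosome 13 had 6 and 1, then 6 and 2, chromosome 15 had 4 and 2 in both treatments, and chromosome 8 had 2 of each in both.

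**Figure D2:**
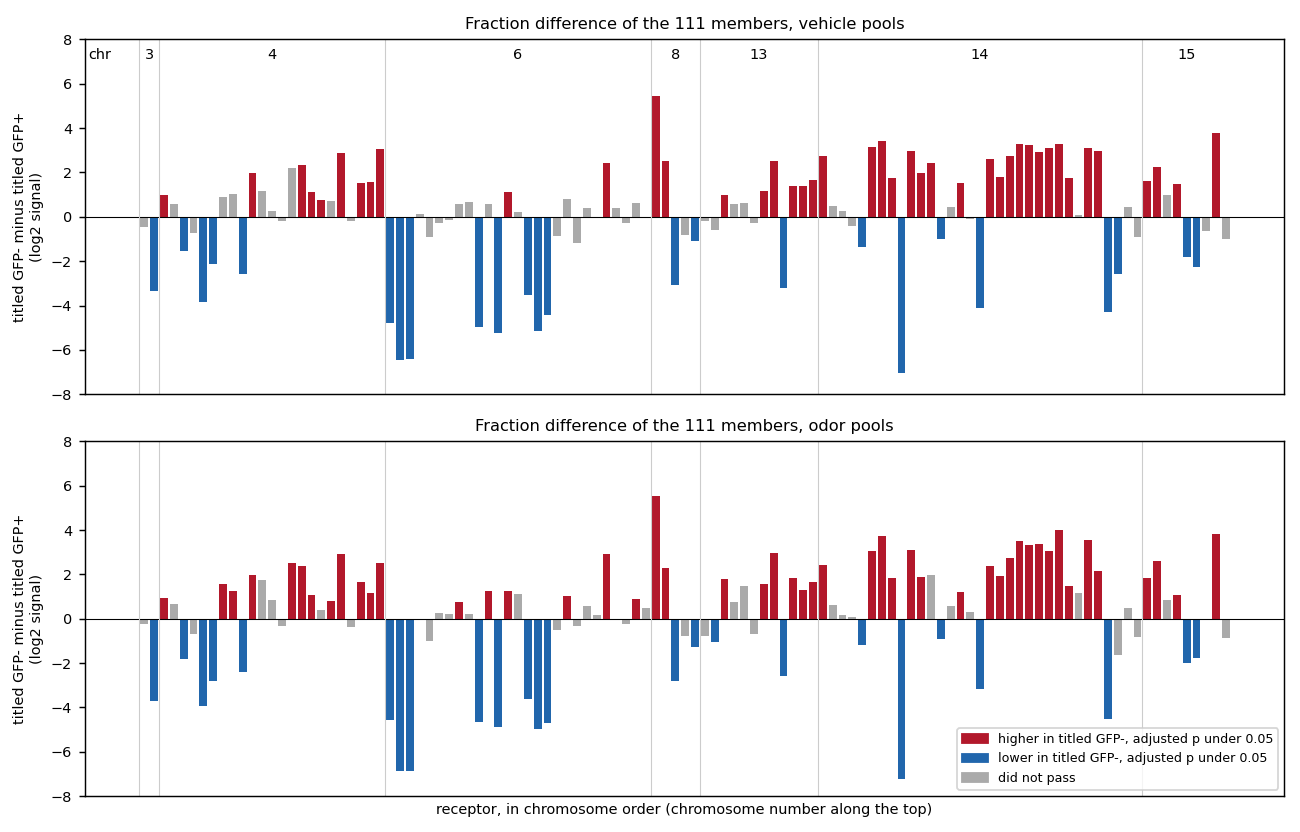
Bars give the fraction difference (log2 signal, titled GFP- minus titled GFP+) of the 111 members in chromosome order, in vehicle pools above and odor pools below, coloured by direction where the adjusted p was under 0.05. Rising bars fill most of chromosome 14, where Olfr728 drops to -7.06 and -7.23, and the deepest bars of chromosome 6 belong to Olfr459 and Olfr460.

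The largest single family was MOR106, whose 13 members fill one run on chromosome 14 between Tlr11 and Ttc5. In each treatment 11 of the 13 rose in titled GFP-, 1 fell and 1 did not pass, with a median difference of 2.91 in vehicle and 2.74 in odor pools. Of the 11, Olfr738, Olfr744 and Olfr746 were below background on all arrays. Olfr741 had log2 signals of 16.07, 15.70, 16.99 and 15.93 in the vehicle arrays titled GFP-. Those titled GFP+ read 12.10, 12.84, 12.98 and 13.60. Its odor arrays read 16.54, 15.55, 15.29 and 15.79 in titled GFP- and 11.98, 13.00, 10.10 and 13.97 in titled GFP+. No array of one fraction reached those of the other in either treatment. The difference was 3.29 ± 0.60 (SE; adjusted p = 0.00079, limma), a 9.81-fold higher signal, in vehicle pools and 3.53 ± 0.60 (adjusted p = 0.00044) in odor pools.

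Others of MOR106 behaved alike in both treatments. Olfr745 was higher by 3.28 ± 0.75 in vehicle and 3.98 ± 0.75 in odor pools (adjusted p = 0.00529 and 0.00112, limma). Olfr742 stood at 11.19, 11.20, 11.89 and 10.85 in the vehicle arrays titled GFP- and at 7.49, 8.02, 8.35 and 8.31, below background on all, in those titled GFP+, at least 3.54-fold lower. Olfr748 rose by 3.09 and 3.55, Olfr743 by 2.91 and 3.38, and Olfr749 by 2.97 and 2.18, in vehicle and odor pools.

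Olfr736, the first gene of the same run, went the other way. Its vehicle arrays titled GFP- read 8.31, 7.13, 7.67 and 7.25 and those titled GFP+ 12.38, 11.99, 11.09 and 11.42. In odor pools the values were 7.77, 7.50, 7.99 and 8.10 against 11.44, 10.47, 10.77 and 11.38. Every titled GFP+ array was thus higher than every titled GFP- array, at differences of -4.13 ± 0.31 and -3.18 ± 0.31 (adjusted p = 5.9e-08 and 1.2e-06, limma), and titled GFP+ exceeded titled GFP- at least 4.33-fold in vehicle and at least 2.23-fold in odor pools. Its neighbour Olfr738 was higher in titled GFP- by 2.62 and 2.37, at signals below background on all arrays. Olfr747 did not pass in either treatment, with differences of 0.07 ± 0.44 in vehicle and 1.17 ± 0.44 in odor pools (adjusted p = 0.934 and 0.0682, limma), and the odor value passed once pools were a replicate block (adjusted p = 0.0375).

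The adjoining run, Olfr722 to Olfr735, holds the 6 members of MOR246, and there again 1 receptor went against its relatives. Olfr728 read 7.24, 5.36, 5.43 and 5.37 in the vehicle arrays titled GFP- and 13.36, 13.00, 13.43 and 11.86 in those titled GFP+. The odor arrays read 6.67, 4.19, 4.87 and 7.05 against 13.41, 12.70, 12.97 and 12.64. The fractions were far apart in both treatments, with no overlap. This was the lowest difference of all members, -7.06 ± 0.57 in vehicle and -7.23 ± 0.57 in odor pools (adjusted p = 1.9e-07 and 1.4e-07, limma), with signal below background on all 8 arrays titled GFP-, at least 9.90-fold and at least 8.39-fold lower than in titled GFP+.

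On both sides of Olfr728 the relatives rose in titled GFP-. Olfr726 was at 14.04, 14.19, 15.60 and 14.94 against 10.44, 11.25, 11.47 and 11.98 in vehicle pools, without overlap, a difference of 3.41 ± 0.48 (adjusted p = 7.2e-05, limma) or 10.6-fold. In odor pools it was 3.71 ± 0.48 higher (adjusted p = 3.2e-05, limma). Olfr729 rose by 2.96 and 3.12, and Olfr725 by 3.15 and 3.05, in vehicle and odor pools. Olfr727 rose by 1.76 and 1.85 (adjusted p = 0.0119 and 0.00785, limma), but missed the threshold without vehicle replicate 3 (1.43, adjusted p = 0.0764), without vehicle replicate 4 (1.63, adjusted p = 0.0614) and, in odor pools, without odor replicate 1 (1.74, adjusted p = 0.0528).

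**Figure D3:**
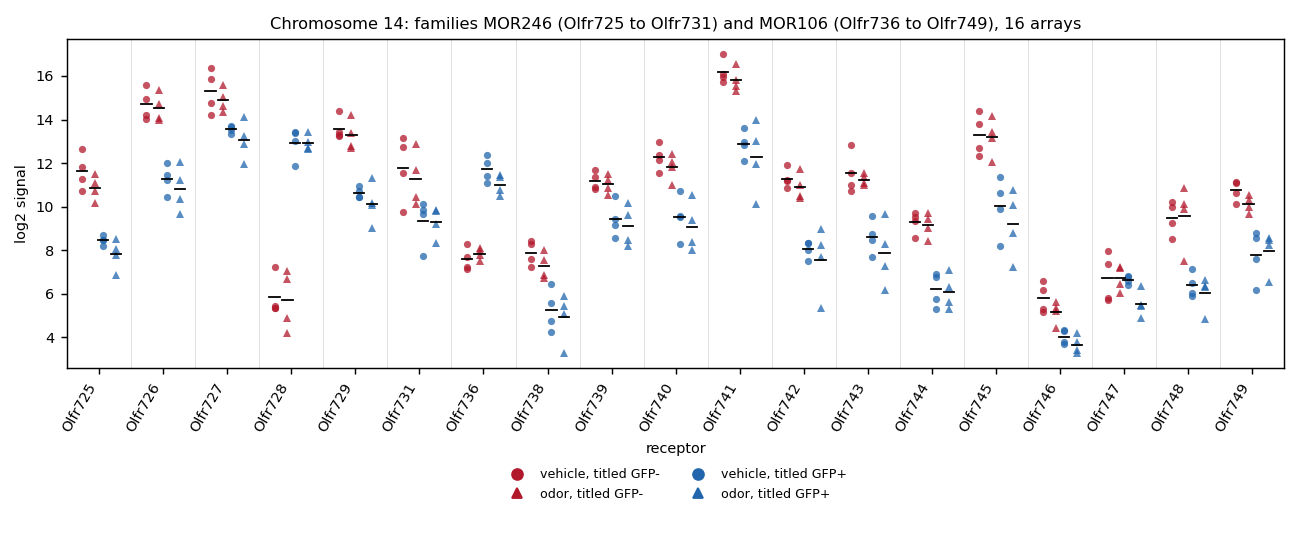
Log2 signal on each of the 16 arrays (points, with the group mean as a line) for the 6 members of MOR246 and the 13 of MOR106 on chromosome 14, red for titled GFP-, blue for titled GFP+, circles for vehicle and triangles for odor. Olfr728 and Olfr736 stand out as the receptors with blue above red, while Olfr741 has red above blue, with a mean of 16.17 in vehicle titled GFP-.

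On chromosome 6 the 3 members of MOR120 all fell in titled GFP- in both treatments, and Olfr460 and Olfr459 had the lowest differences of that chromosome. Olfr460 read 6.61, 6.63, 6.03 and 7.11 in the vehicle arrays titled GFP- against 12.24, 13.46, 12.74 and 13.80 in titled GFP+, and 5.74, 6.06, 6.63 and 6.54 against 12.49, 13.27, 12.83 and 13.85 in odor pools. Its arrays did not overlap, and the difference was -6.46 ± 0.35 in vehicle and -6.87 ± 0.35 in odor pools (adjusted p = 1.6e-09 and 7.1e-10, limma), at least 11.0-fold and at least 9.52-fold lower. Olfr459, alone between Kel and Pip, had nearly the same difference with less spread. It read 5.87, 5.87, 5.45 and 5.78 against 12.15, 12.33, 11.94 and 12.28 in vehicle pools and 5.30, 4.77, 5.21 and 5.52 against 11.60, 12.21, 12.47 and 11.97 in odor pools. The groups stood apart on every array, by -6.43 ± 0.19 and -6.86 ± 0.19 (adjusted p = 3.1e-12 and 1.9e-12, limma), and signal in titled GFP- was at least 5.95-fold and at least 4.60-fold lower. For Olfr461 the differences were -4.78 and -4.55, but both fractions lay below background, so no fold is given.

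MOR261, with 11 members in a run further along chromosome 6, held receptors of both directions. In vehicle pools 4 fell and 1 rose, and in odor pools 4 fell and 2 rose. Olfr448, Olfr441, Olfr237 and Olfr444 were the ones that fell, by -5.25, -5.14, -4.41 and -3.55 in vehicle and -4.88, -4.96, -4.70 and -3.60 in odor pools. Olfr237 was the least variable of them, at 7.71, 8.02, 8.34 and 8.01 against 12.37, 12.61, 11.73 and 13.02 in vehicle pools. In odor pools it stood at 7.45, 7.83, 8.56 and 7.74 against 11.81, 12.64, 12.72 and 13.22. All titled GFP+ arrays were above all titled GFP- arrays (SE 0.31, adjusted p = 3.1e-08 and 1.8e-08, limma), at least 7.09-fold and at least 6.67-fold. Of the 6 MOR257 receptors beside them, Olfr452 fell by -4.99 ± 0.46 and -4.66 ± 0.46 (adjusted p = 6.5e-07 and 1.4e-06, limma), 0 others passed in vehicle pools and 2 others rose in odor pools.

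The highest difference belonged to chromosome 8, where Olfr372, Olfr373 and Olfr374 lie between Cyp4f18 and Tpm4. Olfr372 read 10.84, 10.99, 10.67 and 10.97 in the vehicle arrays titled GFP- and 5.11, 5.61, 5.34 and 5.67 in titled GFP+, and 10.34, 11.41, 11.01 and 10.70 against 4.60, 5.49, 5.88 and 5.40 in odor pools. It was higher in titled GFP- on every array, by 5.44 ± 0.25 and 5.52 ± 0.25 (adjusted p = 2.5e-10 and 2.2e-10, limma), at least 2.66-fold and at least 1.34-fold over arrays titled GFP+ that were all below background. Olfr373, also MOR282, rose by 2.52 and 2.31. The third gene, Olfr374 of MOR130, fell by -3.08 ± 0.32 and -2.80 ± 0.32 (adjusted p = 2.3e-06 and 6.8e-06, limma), at signals below background on all arrays.

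Chromosome 15 showed a like mixture within MOR160. Olfr281, next to the lactalbumin gene Lalba, read 13.26, 14.25, 14.30 and 13.76 against 9.54, 10.74, 10.14 and 10.06 in vehicle pools and 13.25, 13.95, 13.83 and 13.82 against 9.49, 10.17, 9.44 and 10.42 in odor pools. Its fractions did not overlap, and titled GFP- was higher by 3.77 ± 0.29, or 13.6-fold, in vehicle and by 3.83 ± 0.29 in odor pools (adjusted p = 1e-07 and 9.3e-08, limma). Olfr285 also rose, by 1.50 and 1.09, the second of which missed the threshold with arrays centred on the receptor median (0.62, adjusted p = 0.274). Olfr283 and Olfr284 fell, by -2.26 and -1.80 in vehicle and -1.78 and -2.01 in odor pools, Olfr284 at signals below background on all arrays. Olfr283 missed the threshold in odor pools without odor replicate 3 (-1.54, adjusted p = 0.076).

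On chromosome 4, MOR259 had 6 of 8 members higher in titled GFP- in each treatment and 0 lower. Of the 8, Olfr1337, Olfr1335 and Olfr1329 were below background on all arrays. Olfr1328 was higher by 3.06 ± 0.49 and 2.50 ± 0.49, at least 4.67-fold and at least 2.30-fold, and Olfr1333 by 2.86 ± 0.37 and 2.92 ± 0.37, at least 3.17-fold and at least 1.15-fold (adjusted p from 2.2e-05 for Olfr1333 to 0.0016 for Olfr1328, limma). Olfr266, alone between Cd53 and Kcna3 on chromosome 3, fell by -3.35 ± 0.58 and -3.69 ± 0.58 (adjusted p = 0.00056 and 0.00024, limma), at signals below background. Olfr750, which lies among ribonuclease genes on chromosome 14, fell by -4.32 ± 0.83 and -4.52 ± 0.83 (adjusted p = 0.00136 and 0.00093, limma).

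Among the 10 MOR256 receptors, all on chromosome 13, 5 rose in each treatment, and 1 fell in vehicle and 2 in odor pools. Olfr1362 rose by 2.51 and 2.98. Its neighbour Olfr11 read 7.40, 8.56, 8.30 and 11.33 in the vehicle arrays titled GFP- against 11.77, 12.39, 11.63 and 12.63 in titled GFP+, and 7.13, 9.09, 9.67 and 11.19 against 10.85, 12.36, 12.16 and 12.07 in odor pools. Vehicle arrays did not overlap between fractions, and odor arrays did, since the titled GFP- array of replicate 4 was above the titled GFP+ array of replicate 1. The difference of -3.21 ± 0.78 in vehicle pools (adjusted p = 0.00812, limma) missed the threshold without vehicle replicate 1 (-2.82, adjusted p = 0.0534) or 2 (-3.002, adjusted p = 0.0532). That of -2.59 ± 0.78 in odor pools (adjusted p = 0.0252, limma) missed it without odor replicate 1 (-2.22, adjusted p = 0.0692), 2 (-2.37, adjusted p = 0.108) or 3 (-2.62, adjusted p = 0.0796).

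The 4 OR37 receptors, Olfr155, Olfr156, Olfr157 and Olfr159, form a run on chromosome 4 between Spaar and Reck. OR37 neurons lie clustered in a central patch of the epithelium, and these receptors are known for responses to long-chain fatty aldehydes. They were singled out after their values had been seen. In each treatment 3 of the 4 fell in titled GFP- and Olfr156 did not pass, while of the 6 other MOR262 members 2 rose and 1 fell in vehicle and 4 rose and 1 fell in odor pools.

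Olfr157 read 5.81, 4.88, 5.18 and 5.94 in the vehicle arrays titled GFP- against 9.23, 9.20, 8.97 and 9.78 in titled GFP+, and 5.21, 4.80, 6.07 and 5.25 against 9.03, 9.79, 9.11 and 9.15 in odor pools. The fractions were separate in both treatments, with differences of -3.84 ± 0.29 and -3.94 ± 0.29 (adjusted p = 6.2e-08 and 5.1e-08, limma). Its signals were below background on all odor arrays and on all vehicle arrays titled GFP-. Only 2 of the 4 vehicle arrays titled GFP+ exceeded background, so no fold is given. Olfr155 read 10.86, 7.55, 10.05 and 11.28 against 12.01, 12.10, 11.91 and 12.29 in vehicle pools, and 9.86, 7.95, 9.66 and 10.39 against 12.40, 12.25, 12.34 and 12.13 in odor pools. The arrays titled GFP- were all lower and far more spread than those titled GFP+. The odor difference was -2.81 ± 0.61 (adjusted p = 0.00352, limma). The vehicle difference, -2.14 ± 0.61 (adjusted p = 0.0234, limma), missed the threshold without vehicle replicate 2 (-1.34, adjusted p = 0.0743) or 3 (-2.23, adjusted p = 0.0749) and with only the vehicle arrays fitted (-2.14, adjusted p = 0.0574). Olfr159 fell by -1.54 ± 0.28 and -1.81 ± 0.28 (adjusted p = 0.00081 and 0.00019, limma) at signals below background on all arrays. Olfr156 differed by -0.72 ± 0.37 and -0.68 ± 0.37 (adjusted p = 0.197 and 0.198, limma), with overlapping arrays, and its odor value passed with arrays centred on the receptor median (-1.15, adjusted p = 0.0409).

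**Figure D4:**
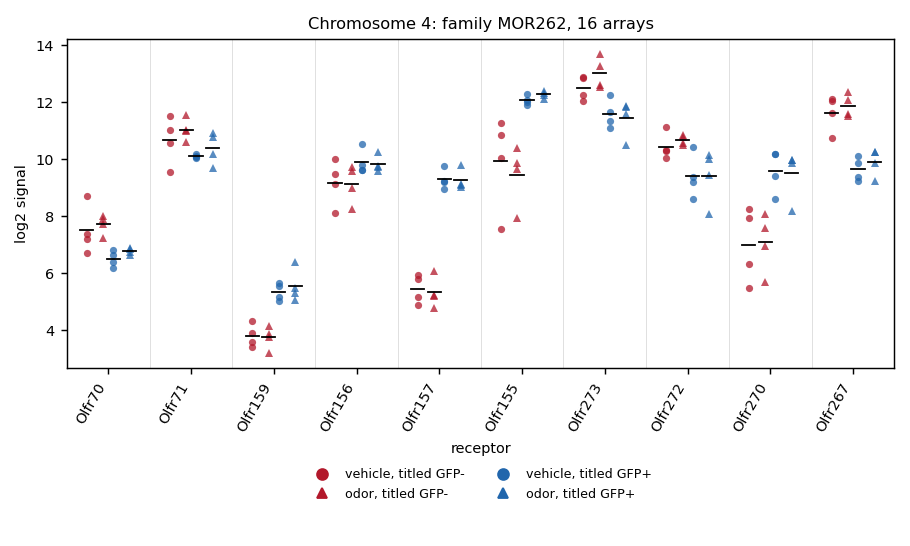
Log2 signal on each of the 16 arrays (points, with the group mean as a line) for the 10 MOR262 receptors of chromosome 4, in red for titled GFP- and blue for titled GFP+, circles for vehicle and triangles for odor. Olfr159, Olfr157 and Olfr155 have blue above red, as does Olfr270, whereas Olfr267 has red above blue by 1.98 in both treatments. For Olfr156 the blue means are also above the red ones, but its arrays overlap and it did not pass.

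Whether smelling the aldehyde mixture changed any member was asked in 3 ways, and 0 members passed in each. The odor effect on the fraction difference passed for 0% of all features, with 3.78% at an unadjusted p under 0.05, among them 1 member (limma). Odor minus vehicle in titled GFP- cells passed for 0%, with 4.11% and 3 members at the unadjusted threshold. In titled GFP+ cells it passed for 0%, with 10.3% and 5 members. The count stayed at 0 with pools as a block for the odor effect on the fraction difference. Odor minus vehicle cannot be blocked by pool, since each pool had 1 treatment. There the replicate number, shared by pools of different mice, was the block, and the count was also 0. The median 95% interval reached 1.06 log2 units to each side for the odor effect on the fraction difference and 0.75 for the other comparisons (unadjusted). Changes of that size, and larger ones once p-values are adjusted over all features, could thus go undetected. Olfr724 at -0.87 in titled GFP+ did not pass.

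For the OR37 receptors the odor effect on the fraction difference was -0.27 for Olfr159 (95% interval -1.11 to 0.57), 0.04 for Olfr156 (-1.06 to 1.14), -0.10 for Olfr157 (-0.95 to 0.76) and -0.67 for Olfr155 (-2.51 to 1.16). All 4 intervals include 0, and that of Olfr155 is the widest.

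The members with the smallest p-values did not pass and are given for their size. In titled GFP+, receptors in general read lower in odor than in vehicle arrays. The difference was negative for 83 members and positive for 28, with a median of -0.24. Of all 1080 receptors, 828 were negative and 252 positive, with a median of -0.22, against -0.03 over all features. The cause of this shift was not tested. In titled GFP+ cells Olfr724 read 10.50, 10.02, 10.16 and 10.28 in vehicle and 9.31, 9.09, 9.26 and 9.80 in odor arrays, a difference of -0.87 ± 0.25 (adjusted p = 0.315, limma). No odor array reached a vehicle array. Olfr723, whose upstream sequence it shares, read 8.17, 8.04, 8.77 and 8.57 in vehicle and 7.19, 7.70, 7.80 and 7.92 in odor arrays, a difference of -0.73 ± 0.22 (adjusted p = 0.339, limma), again without overlap. Such separation of odor from vehicle arrays in titled GFP+ was found for 4 of the 111 members and for 1032 of all 19572 features. Both lay near or below background, and how far the probe sets of such near copies pick up each other's RNA is not given in the sources used here. In titled GFP- cells the differences were -0.71 ± 0.25 for Olfr724 (adjusted p = 0.999) and -0.23 ± 0.22 for Olfr723 (adjusted p = 0.999, limma). Olfr47, Olfr747 and Olfr736 followed in titled GFP+, at -0.40, -1.10 and -0.70. In titled GFP- the other members under an unadjusted p of 0.05 were Olfr285 at -0.67 and Olfr459 at -0.54. The odor effect on the fraction difference was 0.95 ± 0.43 for Olfr736 (95% interval 0.04 to 1.87, adjusted p = 1.00, limma).

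**Figure D5:**
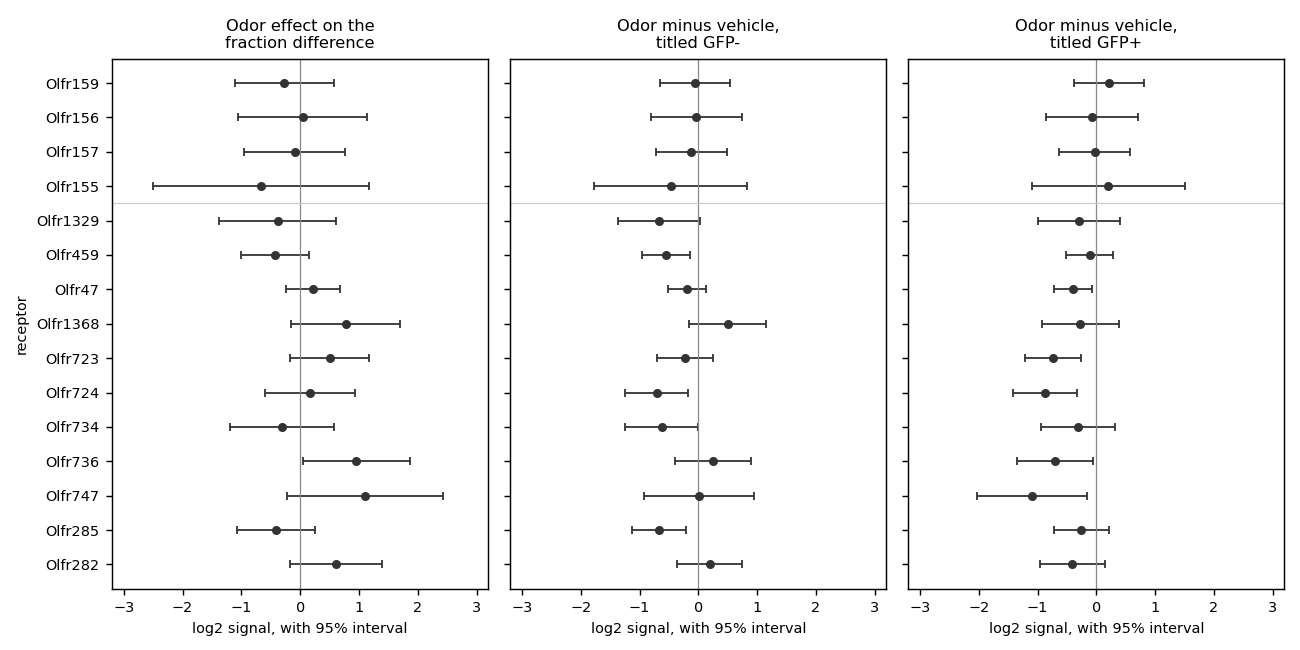
Points give differences on the log2 scale with 95% intervals for the 4 OR37 receptors (above the line) and the members with the smallest p-values, for the odor effect on the fraction difference (left), odor minus vehicle in titled GFP- (middle) and in titled GFP+ cells (right). Most intervals cross 0, and the 2 lowest p-values belong to Olfr724 and Olfr723 in the right panel, at -0.87 and -0.73; no member passed after adjustment.

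Genes that serve receptor signalling and receptor choice moved little between the fractions, by comparison. Of 20 such genes, 2 rose and 0 fell in vehicle pools, and 4 rose and 1 fell in odor pools, with median differences of 0.16 and 0.18, and 0 passed in the 3 odor comparisons (limma). Pde1c, a ciliary phosphodiesterase that breaks down cyclic AMP, rose by 0.57 and 0.71, and Ano2, the calcium-gated chloride channel of the cilia, by 0.39 and 0.41. Adcy3, the adenylyl cyclase of the cascade, and Rtp2, which helps receptors to the cell surface, rose in odor pools, by 0.30 and 0.37. Cnbd2 fell in odor pools, by -0.66. Lhx2 and Ldb1, factors at receptor enhancers, differed by -0.06 and -0.04 in vehicle pools and did not pass.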

How the data were processed

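Values were log2 array signals deposited by the authors, 1 per feature and array, a unit read from their range. They were made with Affymetrix Expression Console, per the submitters' processing notes. Its version, background correction and normalization are not given in the sources used here. The deposited scale between arrays was kept. Groups follow the sample titles, with 4 arrays each, and array number limits the precision. Each array is a pool of 3 mice, and the 2 fractions of a pool come from the same mice. Same-numbered fractions deviated together (r over all features 0.188 to 0.337 in vehicle and 0.0957 to 0.245 in odor pools). Fractions of different numbers reached at most 0.0834 and 0.0882. For same-numbered odor and vehicle pools r was 0.178 to 0.379 in titled GFP- and 0.147 to 0.547 in titled GFP+. Differently numbered ones reached 0.141 in titled GFP- and 0.200 in titled GFP+, the latter above the lowest same-numbered value.

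A limma 3.58.1 model (R 4.3.3) of the 4 group means was fitted to the 19572 features with 1 gene symbol, with two-sided moderated tests and Benjamini-Hochberg adjustment over all of them at 0.05. The steps were tested on simulated data. At-least folds set the mean of the brighter group against the background level of the dimmer group's arrays, none of which exceeded it. The members and lists were chosen with earlier results of these data known. Named for each fraction difference were the 6 highest and 6 lowest members that passed, for the odor comparisons the 5 smallest p-values, the 3 highest and 3 lowest levels, and the largest vehicle difference per chromosome. Receptors described within a family beyond these were chosen after their values were seen. Most alike protein pairs were to be named too, but protein sequences were not used here. Alternatives were other scalings, a dim-feature filter, a block, a trended prior, the compared arrays alone and leaving out each pool. The block was the pool, or the replicate number for odor minus vehicle.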

Additional observations from a re-analysis of the deposited data

Results flagged for a closer look

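In the 50 named members, 200 groups of 4 arrays were examined for an array standing far from the other 3, and 8 (4.0%) had one, where chance flags about 1 in 20 groups. In Olfr728, vehicle replicate 1 titled GFP- was at 7.24, with the others at 5.36 to 5.43. Olfr374 had the same array at 4.91, against 5.92 to 5.99. In Olfr729, vehicle replicate 3 titled GFP- reached 14.40, above 13.24 to 13.41. The odor array of replicate 1 titled GFP- was at 5.41 in Olfr441, below 7.42 to 7.73. Odor replicate 1 titled GFP+ stood apart in 3 members: Olfr749 at 6.52 (others 8.23 to 8.54), Olfr750 at 8.78 (10.71 to 10.80) and Olfr285 at 9.51 (8.86 to 8.94). In Olfr157, odor replicate 2 titled GFP+ was at 9.79, against 9.03 to 9.15.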

How the results depend on the processing

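The count of members past the threshold ranged from 50 (features above background on at least 4 arrays, 69 members tested) to 82 (every array centred on its median over tested features) in vehicle pools and from 51 to 84 in odor pools under the same settings, and leaving out each pool in turn gave 56 to 72 and 61 to 73. With pools as a replicate block 71 and 79 members passed, of which 62 and 70 were among the 66 and 72 of the unblocked fit. Among named members the block changed only the odor call of Olfr747. The odor comparisons stayed at 0 members under every alternative run. Members above background numbered 103 with the median of the negative controls as the limit, against 61, and 61 to 67 without each pool. Of 1406 alternative values for named members, 1382 kept direction and call, 13 lost the threshold, 6 gained it (Olfr747 under 5 and Olfr156 under 1 alternative, both in odor pools) and 5 changed sign. The sign changes were those of Olfr747 in vehicle pools (-0.20 with arrays centred on the receptor median, and -0.31 to 0.39 over the fits that left out 1 vehicle pool) and Olfr723 in odor pools (-0.38 with that centring, and -0.080 to 0.19 over the fits that left out 1 odor pool). Their cause was not tested. Centring on the median of tested features moved the median difference of the members to 0.97 and 1.06, and on the receptor median to 0.30 and 0.30 (0.56 and 0.76 as deposited). Signal over background limits the members below it: 29 never exceeded it on any array.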

Other observations

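Some members kept the order of their 4 replicate numbers from group to group, although odor and vehicle pools hold different mice. For Olfr745 replicates 1 to 4 read 12.32, 13.81, 12.69 and 14.37 in vehicle and 12.07, 13.42, 13.15 and 14.18 in odor arrays titled GFP-. In titled GFP+ they read 8.20, 10.61, 9.88 and 11.37 in vehicle and 7.25, 10.06, 8.80 and 10.78 in odor arrays, so that replicate 1 was lowest and replicate 4 highest in all 4 groups. Olfr11 in titled GFP- was also lowest in replicate 1 and highest in replicate 4 of both treatments. Over the 111 members, deviations of same-numbered odor and vehicle arrays from their group means correlated at 0.048 to 0.709 in titled GFP- and at -0.017 to 0.699 in titled GFP+, and arrays of different numbers at -0.639 to 0.424 and at -0.704 to 0.523. The labels do not say what a replicate number stands for beyond the pool.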
